A study of Oryctolagus cuniculus with 49 samples.

Results

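The genes of 11 families of ion channels were examined in rabbit iris and ciliary body after removal of the lens. A gene was taken as a member when its symbol in the deposited table began with the root of a potassium, chloride, sodium, calcium, transient receptor potential (TRP), mucolipin, anoctamin, connexin, pannexin, P2X receptor or inositol trisphosphate (IP3) receptor gene. Roots for hyperpolarization-activated (HCN) and PIEZO channels were searched too and returned 0 symbols. In all, 89 of the 12948 genes of the table matched, on 118 transcripts, and the rule reads symbols only, not values. The rule also takes in subunits that form no pore, and TRPC4AP, which is a binding partner of a TRP channel and not a channel. A further 6 symbols of the table that the rule missed are named as channel genes in RefSeq (KCNH5, ITPR3, GJC3, ANO1, TRPM2 and KCNJ12), and they were not counted as members.

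The series asked how the front of the eye responds to lens removal at different ages. All animals were New Zealand white rabbits, and in the operated groups the lens was removed and an intraocular lens implanted. The iris and ciliary body libraries comprise 7 from unoperated 5-week-old rabbits, 3 from operated 5-week-old rabbits, 3 from operated 6.5-week-old rabbits, 7 from unoperated 6-month-old rabbits and 6 from operated 6-month-old rabbits. Total RNA of the combined tissue was sequenced, so each library mixes all its cell types. The labels give neither an unoperated 6.5-week group nor the time since surgery, and surgery and growth cannot be told apart in the 6.5-week libraries. The title of each library carries a number of its own, but the labels do not say whether it marks an animal, so the p-values measure only the spread between these libraries.

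Ion channels are membrane proteins that let ions run down their gradients when a voltage, a ligand, a mechanical force or an internal signal opens them. In the ciliary body, potassium and chloride channels work beside pumps and cotransporters in the epithelium that secretes aqueous humour, and connexins join its pigmented and non-pigmented layers into a syncytium. In the ciliary and iris muscles, calcium and potassium channels set contraction, and in vessels potassium channels and connexins carry signals along the wall. Many channels consist of a pore-forming subunit and accessory subunits that change its gating or its traffic to the membrane.

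Levels are given as FPKM, a fragment count divided by the transcript's length and by the library's mapped fragments, and are summed over the transcripts of a gene. Read depth per library is unknown, because the table holds no counts. The FPKM of a library summed to between 412936 and 504202. The unoperated 6-month libraries reached 431241 to 456586 and the operated ones 476369 to 504202, and for juveniles the ranges were 412936 to 438564 and 437259 to 490542. Marker genes of the ciliary epithelium, including SLC26A4 and BEST2, were present in all groups, with a summed level of 11 measured markers of 3602 to 5809 FPKM in unoperated 5-week and 3366 to 4441 FPKM in unoperated 6-month libraries. It was 1614 to 2513 FPKM in operated juveniles and 1645 to 2784 FPKM in operated 6-month libraries. The 9 measured pigment cell markers also summed lower after surgery (2227 to 2735 against 1353 to 1949 FPKM at 6 months, 2820 to 3723 against 1605 to 2147 FPKM in juveniles). The 9 macrophage markers summed higher (91.8 to 256 against 300.7 to 767.1 FPKM at 6 months, 71.95 to 177 against 353 to 859.8 FPKM in juveniles), as did the 11 endothelial markers (186.2 to 228.1 against 246.2 to 413.8 FPKM at 6 months, 177.9 to 210.4 against 310.4 to 436.4 FPKM in juveniles). The 11 smooth muscle markers lay at 1711 to 2517 FPKM in unoperated 5-week and 2337 to 2833 FPKM in unoperated 6-month libraries. Lens RNA was uneven: 8 libraries exceeded 1000 FPKM of the lens crystallin CRYAA, 4 of them unoperated 5-week, 1 operated 5-week, 1 unoperated 6-month and 2 operated 6-month. The part of these cell types in the results below was not tested, and in bulk tissue fewer cells of a type and less RNA per cell cannot be told apart.

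Of the members, only 5 averaged 100 FPKM or more over the 26 libraries: GJA1, the most widespread connexin, at 802.7 FPKM, the inward rectifier KCNJ13 of ion-transporting epithelia at 181.4 FPKM, the chloride intracellular channel proteins CLIC4 at 139 FPKM and CLIC1 at 122.6 FPKM, and TRPM1, a channel of melanocytes and retinal bipolar cells, at 108.6 FPKM. At the low end 39 members averaged under 5 FPKM and 20 under 2 FPKM, and the median of the members' means was 6.27 FPKM against 11.9 FPKM for all genes. The most abundant member of the other families was KCNG4 at 39.2 FPKM (voltage-gated potassium), KCNN2 at 24 FPKM (calcium-activated potassium), KCNIP1 at 38.1 FPKM (potassium accessory), SCN4B at 31.5 FPKM (sodium), CACNB3 at 29.7 FPKM (voltage-gated calcium), P2RX4 at 23.6 FPKM (P2X) and ITPR1 at 12.9 FPKM (IP3 receptor). SCN4B and CACNB3 are modulatory subunits, and KCNG4 is a silent subunit that forms no channel alone. The table lists a transcript only where 1 of 4 groups (operated juveniles as a single group) had each of its libraries over 1 FPKM, so a gene low in all groups cannot be seen. Of all 89, 82 exceeded 1 FPKM in all unoperated libraries of an age, and 7 (among them GJB5, KCNJ10, KCNJ2, KCNK5 and P2RX1) did so only in an operated group. Among the 82, 13 did so only in unoperated groups: ANO3, CACNA1A, CACNA1D, CACNA1G, CACNB1, CACNB4, GJB6, KCNA3, KCNF1, KCNH2, KCNJ3, KCNMB2 and MCOLN2. Members that pass this limit only on the side where they are high are more likely to show a rise (the former) or a fall (the latter) with surgery, and neither the counts of rises nor those of falls below are free of this. Members that pass this limit at only 1 age bear on the counts with age in the same way.

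**Figure D1:**
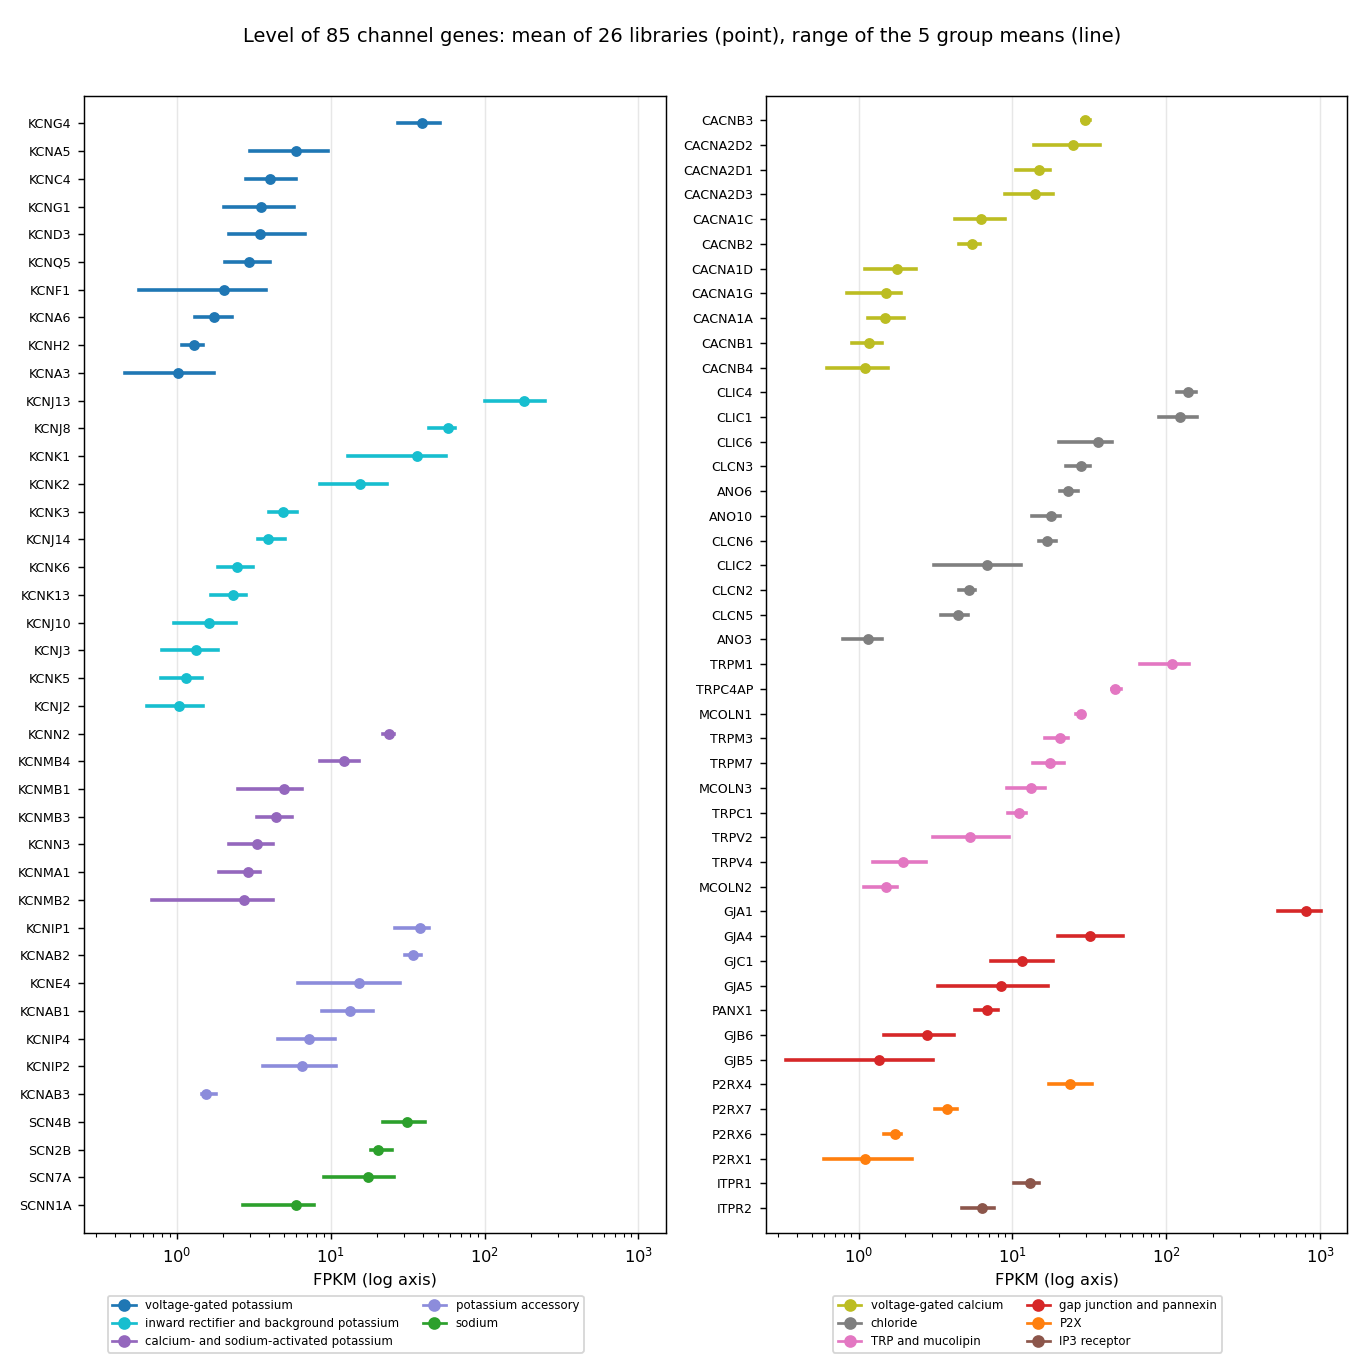
Level of 85 of the 89 members in FPKM on a log axis, by family; the point is the mean of 26 libraries and the line spans the 5 group means. GJA1 stands at 802.7 FPKM and only 4 others reach 100 FPKM, and most members lie well under 100 FPKM.

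Summed over the 89 members, channel expression at 6 months was 2678 ± 87.2 FPKM (SD, n = 7) without surgery and 2078 ± 187 FPKM (n = 6) with it, and in juveniles 2468 ± 111 FPKM (n = 7) without and 1919 ± 81.4 FPKM (n = 6) with it. Connexins and pannexin, of which GJA1 makes up most, went from 1058 ± 56.4 to 720.5 ± 98.5 FPKM at 6 months and from 1011 ± 88.2 to 631.3 ± 39.9 FPKM in juveniles. The voltage-gated calcium genes summed to 115 ± 5.65 FPKM in unoperated and 78.5 ± 4.9 FPKM in operated 6-month libraries, and to 125 ± 7.16 and 84.7 ± 6.78 FPKM in juveniles. No test was made on these sums.

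At 6 months 19 members rose after surgery and 35 fell, of 89. Changes were tested with limma on log2(FPKM + 0.5), adjusted by the Benjamini-Hochberg method over all genes, and a gene with an adjusted p under 0.05 is said to have risen or fallen. Over all genes 16.0% rose and 30.1% fell, and the median log2 fold change was -0.28 over the members and -0.10 over all genes. In juveniles, with both operated ages against unoperated 5-week libraries, 21 members rose and 27 fell, beside 16.5% and 20.8% of all genes, with medians of -0.14 and -0.06. The 2 surgery comparisons share no library. In them 17 members rose at both ages and 23 fell at both, beside 11.9% and 16.6% of all genes, and 27 members passed the test at neither. Opposite calls at the 2 ages were made for 0 members and for 13 of all genes. At 6 months operated and unoperated libraries did not overlap for 11 of the 19 members that rose and 18 of the 35 that fell. Over the whole table this held for 1049 of the 2077 genes that rose and 1622 of the 3892 that fell. These make up 8.10% and 12.5% of all genes. In juveniles operated and unoperated libraries did not overlap for 15 of the 21 members that rose and 14 of the 27 that fell. Over the whole table this held for 1007 of the 2141 genes that rose and 1003 of the 2694 that fell, or 7.78% and 7.75% of all genes. When every library was first scaled to the same FPKM sum, the median log2 fold change of all genes moved to -0.25 at 6 months and -0.18 in juveniles. The members then split into 19 that rose and 50 that fell at 6 months (11.1% and 47.3% of all genes). In juveniles 19 rose and 38 fell (11.9% and 36.1% of all genes), where 33.3% of the members' calls were rises against 43.8% without the scaling. Median-ratio scaling instead gave 20 rises and 31 falls at 6 months (21.5% and 20.2% of all genes). It gave 22 and 22 in juveniles (18.3% and 18% of all genes). With upper-quartile scaling 19 rose and 34 fell at 6 months (18.7% and 25% of all genes), and 21 and 24 in juveniles (17.4% and 19.6% of all genes). The balance of rises and falls thus depended on the scaling.

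**Figure D2:**
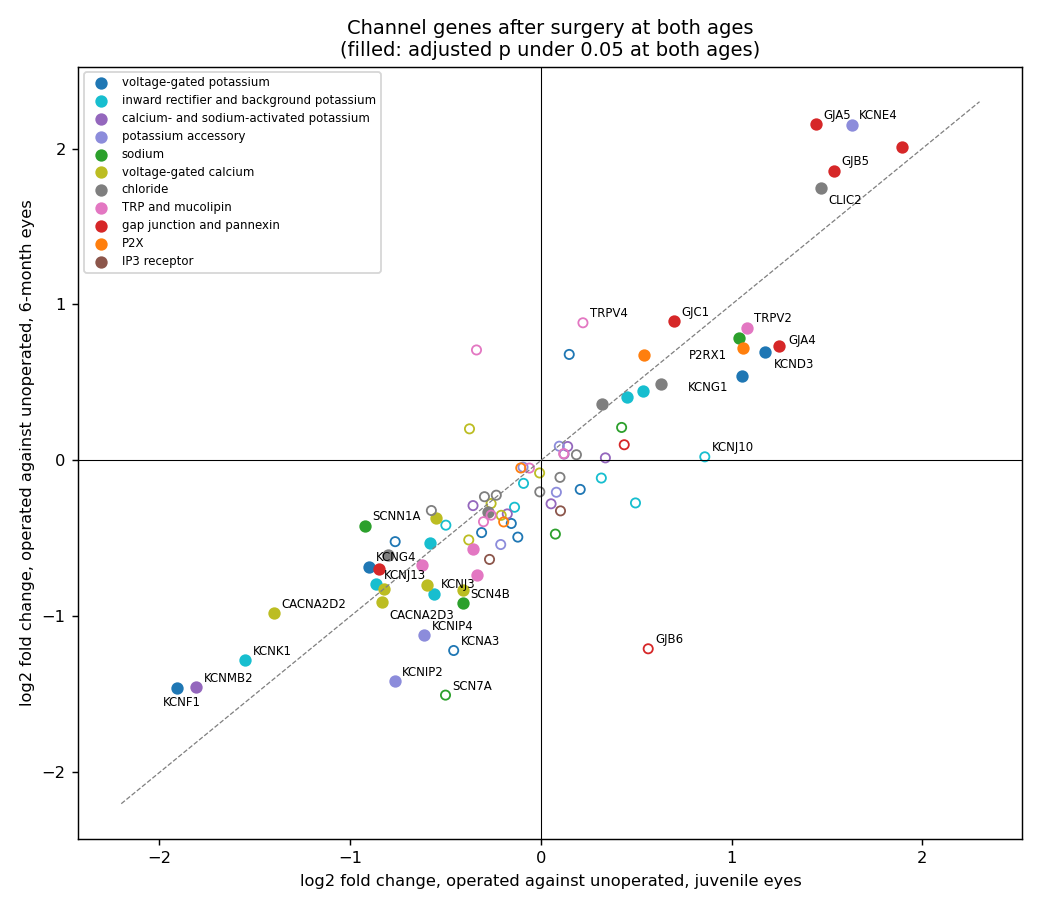
Log2 fold change with surgery of each member in juveniles (horizontal) and at 6 months (vertical), on the log2(FPKM + 0.5) scale; filled points passed an adjusted p under 0.05 at both ages and the dashed line marks equal change. The filled points fall into 17 that rose and 23 that fell at both ages, with KCNE4 and GJA5 highest at 6 months and KCNK1 and KCNMB2 among the lowest.

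The connexins split into 1 abundant gene that fell and 5 less abundant genes that rose at both ages. Over all genes 11.9% rose and 16.6% fell at both. GJA1 lay at 909 to 1076 FPKM (median 1028) in unoperated and 513 to 807 FPKM (median 643) in operated 6-month libraries. In juveniles it lay at 813 to 1054 FPKM (median 995) without surgery, at 480, 557 and 583 FPKM in operated 5-week libraries and at 499, 562 and 542 FPKM in operated 6.5-week libraries. No operated library reached the unoperated range at either age, and the log2 fold change was -0.69 ± 0.086 (SE, adjusted p = 5.89e-07) at 6 months and -0.85 ± 0.086 (adjusted p = 3.5e-08) in juveniles. GJA5, a connexin of arterial endothelium, moved the other way. Its level was 2.15 to 5.32 FPKM (median 3.45) in unoperated and 6.78 to 23.2 FPKM (median 18.5) in operated 6-month libraries. In juveniles it was 2.17 to 4.74 FPKM without surgery against 6.83, 6.54 and 12.1 FPKM at 5 weeks and 15.1, 9.85 and 17.1 FPKM at 6.5 weeks. The operated libraries all exceeded the unoperated ones, by 4.45-fold at 6 months (log2 2.15 ± 0.25, adjusted p = 2.19e-07) and 2.71-fold in juveniles (log2 1.44 ± 0.25, adjusted p = 6.47e-05).

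GJA4, also a vascular connexin, rose by a log2 of 1.25 ± 0.17 in juveniles (adjusted p = 4.04e-06), from 16.4 to 21.6 FPKM in unoperated libraries to 38.7 FPKM or more in each operated one. At 6 months it rose by 0.74 ± 0.17 (adjusted p = 0.00136), and there the ranges of 14.6 to 33.7 and 27.1 to 50.9 FPKM overlapped. GJC1, a connexin of vascular smooth muscle, rose by 0.89 ± 0.12 at 6 months (adjusted p = 2.33e-06) and 0.70 ± 0.12 in juveniles (adjusted p = 6.75e-05), without overlap at either age. GJB5, a connexin best known from the epidermis and listed through its operated libraries, lay at 0.26 to 0.69 FPKM without and 1.7 to 4.25 FPKM with surgery at 6 months (log2 1.86 ± 0.18, adjusted p = 1.82e-08), and rose by 1.54 ± 0.18 in juveniles (adjusted p = 4.6e-07). GJB6, listed through its unoperated libraries only, fell at 6 months, by a log2 of 1.21 ± 0.37 (adjusted p = 0.0101), with overlapping groups. PANX1, which forms channels that release nucleotides, rose in juveniles by 0.44 ± 0.12 (adjusted p = 0.00542), with 0.10 ± 0.12 (adjusted p = 0.51) at 6 months. The PANX1 call was lost without the 8 libraries rich in lens RNA (adjusted p = 0.263).

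Among background and inwardly rectifying potassium channels, which hold the resting potential, the 2 most abundant members called at both ages fell. KCNK1, a weakly rectifying leak channel, had the smallest adjusted p of all 89 members in both surgery comparisons. It lay at 50.1 to 61.4 FPKM (median 56.7) in unoperated and 16 to 31.2 FPKM (median 22.8) in operated 6-month libraries. In unoperated 5-week libraries it lay at 40.2 to 51.1 FPKM. Operated 5-week libraries had 20.7, 19.4 and 15.2 FPKM, and operated 6.5-week libraries 9.73, 13 and 16.2 FPKM. The groups were apart at both ages, with log2 fold changes of -1.28 ± 0.12 (adjusted p = 8.29e-09) and -1.55 ± 0.12 (adjusted p = 4.54e-10). KCNJ13 lay at 200 to 289 FPKM (median 234) without surgery at 6 months, and at 105 to 271 FPKM (median 125) with it. The fall of 0.79 ± 0.16 (adjusted p = 0.000316) held although 1 operated library stood among the unoperated ones. In juveniles KCNJ13 fell by 0.86 ± 0.16 without overlap (adjusted p = 0.000158). KCNJ3, a pore gated by G proteins and listed through its unoperated libraries only, fell by 0.85 ± 0.14 (adjusted p = 3.08e-05) and 0.56 ± 0.14 (adjusted p = 0.00298). KCNK2, a leak channel opened by membrane stretch, fell by 0.53 ± 0.14 (adjusted p = 0.00283) and 0.58 ± 0.14 (adjusted p = 0.00158).

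Smaller rises were seen for KCNJ2, a strong inward rectifier of muscle and vessels, at 0.41 ± 0.12 (adjusted p = 0.00944) and 0.45 ± 0.12 (adjusted p = 0.00547), and for the leak channel KCNK6, at 0.45 ± 0.14 (adjusted p = 0.00952) and 0.54 ± 0.14 (adjusted p = 0.00297), at 6 months and in juveniles. KCNJ2 is listed through its operated 6-month libraries only, and KCNJ10 through its operated juvenile libraries only. KCNJ10, the main inward rectifier of glia, rose in juveniles by 0.86 ± 0.25 (adjusted p = 0.00823, and 0.066 without 3 5-week samples with late sample numbers, 2 unoperated and 1 operated) and stood at 0.02 ± 0.25 (adjusted p = 0.944) at 6 months. KCNJ8, the pore of the ATP-sensitive channel of smooth muscle and the second most abundant gene of this family at 57.7 FPKM, did not pass the test in either surgery comparison (adjusted p = 0.334 and 0.585). In this family 2 members rose (16.7%) and 4 fell (33.3%) of 12 at 6 months, near the 16.0% and 30.1% of all genes. In juveniles 3 rose (25%) and 5 fell (41.7%), beside 16.5% and 20.8% of all genes.

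Of the calcium-activated potassium genes, 1 of 7 fell at 6 months (14.3%, beside 30.1% of all genes), and it fell at both ages. In juveniles 1 rose (14.3%) and 1 fell (14.3%), beside 16.5% and 20.8% of all genes. The rise was that of KCNN3, and its call was lost when single libraries were left out. KCNMB2, a beta subunit that inactivates the large-conductance channel and is listed through its unoperated libraries only, lay at 2.96 to 5.67 FPKM (median 3.99) in unoperated and 0.71 to 1.84 FPKM (median 1.26) in operated 6-month libraries. In juveniles it went from 2.91 to 5.31 FPKM to 1.46, 0.88 and 0.68 FPKM at 5 weeks and 0.63, 0.79 and 0.64 FPKM at 6.5 weeks. The groups did not overlap, and the log2 fold changes were -1.45 ± 0.18 (adjusted p = 7.91e-07) and -1.81 ± 0.18 (adjusted p = 3.59e-08). The pore gene of that channel, KCNMA1, had log2 fold changes of -0.34 ± 0.25 (adjusted p = 0.264) and -0.18 ± 0.25 (adjusted p = 0.606), and the other beta subunits KCNMB1, KCNMB3 and KCNMB4 did not pass the test with surgery either. KCNN2, a small-conductance channel and the most abundant of the family, did not pass the test at 0.09 ± 0.08 (adjusted p = 0.378) and 0.14 ± 0.08 (adjusted p = 0.176).

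**Figure D3:**
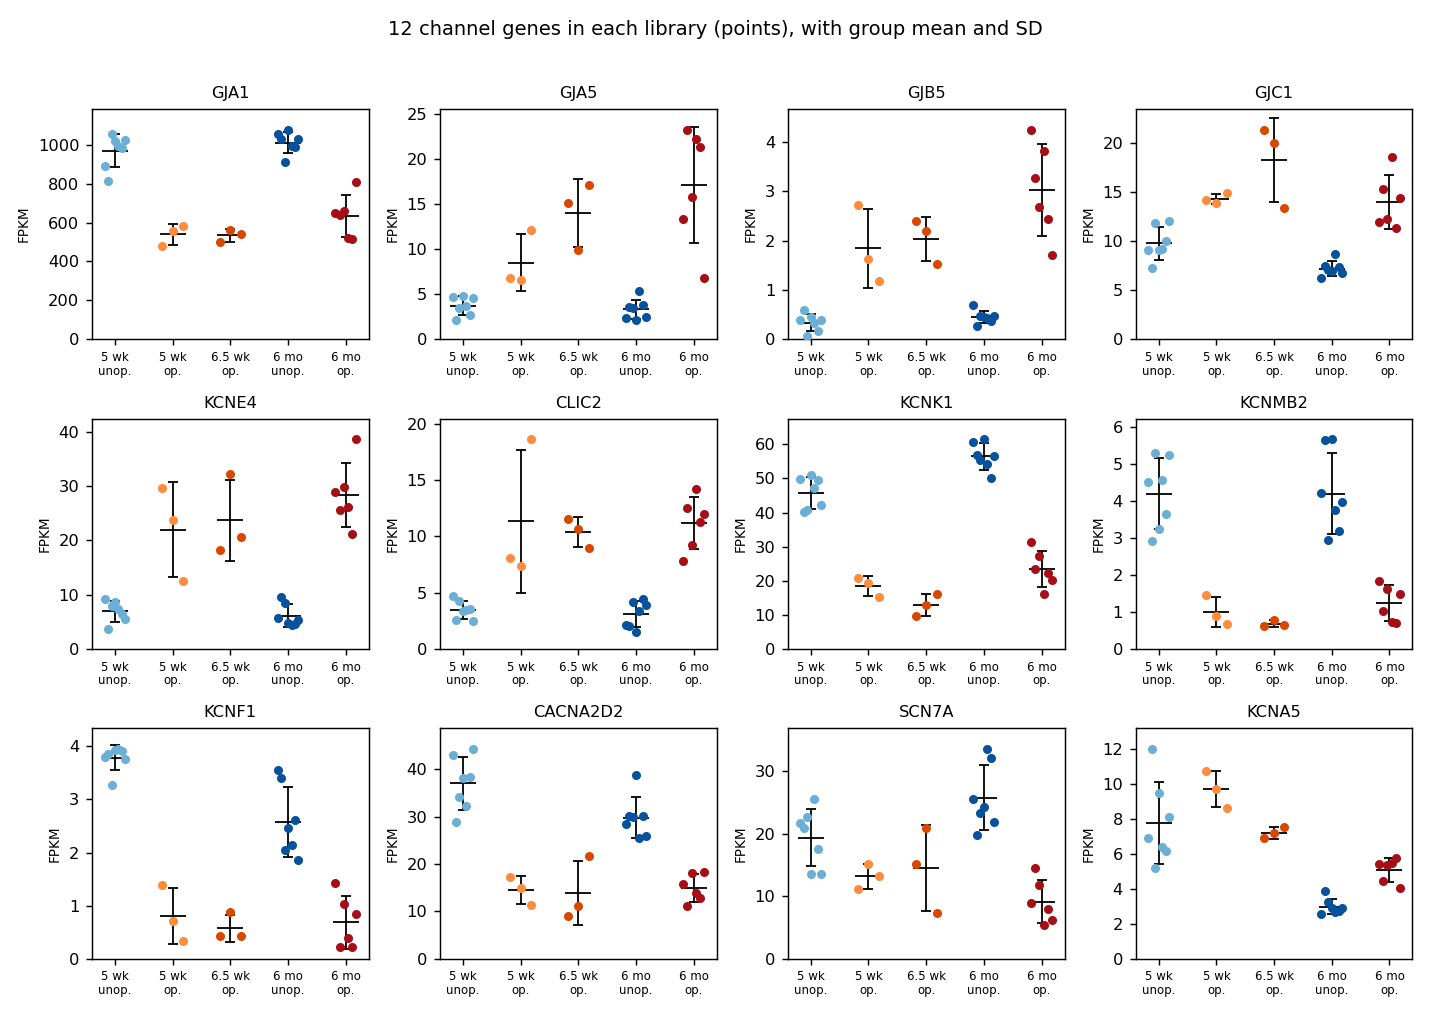
FPKM of 12 members in each of the 26 libraries, by group, with the group mean and SD. GJA5, GJB5, GJC1, KCNE4 and CLIC2 are higher, and GJA1, KCNK1, KCNMB2, KCNF1 and CACNA2D2 lower, in every operated library than in every unoperated library of the compared ages; SCN7A is apart only at 6 months and KCNA5 is lower in unoperated 6-month than in unoperated 5-week libraries.

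Voltage-gated potassium genes, which repolarise the membrane, moved in both directions. At 6 months 3 rose (27.3%) and 5 fell (45.5%) of 11, beside 16.0% and 30.1% of all genes. In juveniles 2 rose (18.2%) and 3 fell (27.3%), beside 16.5% and 20.8%. KCNF1, a silent subunit that modifies other channels and is listed through its unoperated libraries only, lay at 1.86 to 3.55 FPKM (median 2.47) in unoperated and 0.21 to 1.43 FPKM in operated 6-month libraries. In juveniles it lay at 3.27 to 3.95 FPKM without surgery. In operated libraries it lay at 1.38, 0.7 and 0.34 FPKM at 5 weeks of age and at 0.42, 0.87 and 0.42 FPKM at 6.5 weeks. It fell without overlap at both ages, by 1.46 ± 0.22 (adjusted p = 7.38e-06) and 1.91 ± 0.22 (adjusted p = 1.92e-07). KCNG4, the most abundant gene of the family, fell by 0.68 ± 0.21 (adjusted p = 0.0112) and 0.90 ± 0.21 (adjusted p = 0.00162). Another silent subunit, KCNG1, rose by 0.54 ± 0.15 (adjusted p = 0.00455) and 1.05 ± 0.15 (adjusted p = 4.38e-06), as did KCND3, a pore of fast transient currents, by 0.70 ± 0.18 (adjusted p = 0.0025) and 1.17 ± 0.18 (adjusted p = 1.18e-05). KCNA3, a channel known from lymphocytes and macrophages, is listed through its unoperated 6-month libraries only. It lay at 1.34 to 2.44 FPKM in unoperated and 0.26 to 0.78 FPKM in operated 6-month libraries. That gives a fall of 1.22 ± 0.20 (adjusted p = 3.26e-05), while the juvenile change was -0.46 ± 0.20 (adjusted p = 0.0795). KCNA5, of arterial muscle, rose at 6 months by 0.68 ± 0.14 (adjusted p = 0.000288). KCNQ5, of the slowly gating M type, fell at 6 months by 0.46 ± 0.13 (adjusted p = 0.00474). KCNH2 and KCNC4 did not pass the test with surgery.

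Among the accessory subunits of potassium channels, KCNE4 rose about as much at 6 months as GJA5. KCNE4, a single-span subunit that damps voltage-gated channels, lay at 4.38 to 9.58 FPKM (median 5.27) in unoperated and 21.1 to 38.5 FPKM (median 27.5) in operated 6-month libraries. Juvenile values were 3.66 to 9.26 FPKM without surgery, 29.6, 23.8 and 12.5 FPKM at 5 weeks and 18.3, 32.2 and 20.5 FPKM at 6.5 weeks. All operated libraries stood above all unoperated ones, by 4.44-fold (log2 2.15 ± 0.22, adjusted p = 3.12e-08) and 3.1-fold (log2 1.63 ± 0.22, adjusted p = 2.6e-06). Of the calcium-binding partners of transient potassium channels, KCNIP4 fell without overlap by 1.12 ± 0.15 (adjusted p = 1.31e-06) and 0.61 ± 0.15 (adjusted p = 0.00188). KCNIP2 fell by 1.41 ± 0.19 (adjusted p = 2.09e-06) and 0.76 ± 0.19 (adjusted p = 0.00273). The third of these partners, KCNIP1, was the most abundant and did not pass the test, at -0.04 ± 0.15 (adjusted p = 0.835) and -0.09 ± 0.15 (adjusted p = 0.657). KCNAB1, a cytoplasmic beta subunit, fell at 6 months by 0.54 ± 0.12 (adjusted p = 0.000536), and KCNAB2 and KCNAB3 did not pass the test.

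The chloride genes were led by the CLIC proteins, which occur in soluble and membrane-bound forms. CLIC2 lay at 1.54 to 4.46 FPKM (median 3.36) in unoperated and 7.84 to 14.2 FPKM (median 11.6) in operated 6-month libraries. In juveniles it lay at 2.51 to 4.68 FPKM without surgery, at 8.05, 7.33 and 18.6 FPKM at 5 weeks and at 11.5, 10.7 and 8.93 FPKM at 6.5 weeks. Without overlap it rose 3.36-fold (log2 1.75 ± 0.22, adjusted p = 6.26e-07) and 2.77-fold (log2 1.47 ± 0.22, adjusted p = 9.21e-06). The abundant CLIC1 rose less but as cleanly, from 102 to 118 FPKM to 142 to 184 FPKM at 6 months (log2 0.49 ± 0.069, adjusted p = 3.88e-06) and by 0.63 ± 0.069 in juveniles (adjusted p = 1.24e-07). CLIC6, a relative found in secretory epithelia, fell from 37.5 to 55.7 FPKM to 22.7 to 34.6 FPKM at 6 months (log2 -0.61 ± 0.11, adjusted p = 6.86e-05) and by 0.80 ± 0.11 in juveniles (adjusted p = 2.41e-06). ANO6, a calcium-activated scramblase and channel, rose by 0.36 ± 0.07 (adjusted p = 0.000176) and 0.32 ± 0.07 (adjusted p = 0.000803). CLCN2, a plasma membrane chloride channel, had log2 fold changes of -0.22 ± 0.095 (adjusted p = 0.0584) and -0.23 ± 0.095 (adjusted p = 0.0558). The family counted 3 rises (27.3%) and 2 falls (18.2%) of 11 at 6 months, beside 16.0% and 30.1% of all genes. In juveniles it counted 4 (36.4%) and 4 (36.4%), beside 16.5% and 20.8%. CLCN3, an endosomal exchanger, was among the falls at both ages, but neither call outlasted the loss of a library. It was lost at 6 months without operated replicate 4 (adjusted p = 0.0605), and in juveniles when any 1 of 9 libraries was left out (adjusted p up to 0.198).

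Of the 6 sodium channel genes 1 rose (16.7%) and 4 fell (66.7%) at 6 months, beside 16.0% and 30.1% of all genes. In juveniles 1 rose (16.7%) and 2 fell (33.3%), beside 16.5% and 20.8%. SCN4B, a beta subunit, fell by 0.91 ± 0.15 (adjusted p = 3.56e-05) without overlap at 6 months, and SCN2B, another beta subunit and its neighbour in the gene order, fell there by 0.47 ± 0.14 (adjusted p = 0.00626). In juveniles SCN2B stood at 0.08 ± 0.14 (adjusted p = 0.69), and SCN4B at -0.41 ± 0.15 (adjusted p = 0.0377), a call lost when any 1 of 7 libraries was left out (adjusted p up to 0.142). SCN7A, an atypical pore that senses sodium rather than voltage, lay at 19.9 to 33.5 FPKM (median 24.2) in unoperated and 5.31 to 14.4 FPKM (median 8.44) in operated 6-month libraries. Juvenile libraries lay at 13.5 to 25.5 FPKM without surgery, at 11.2, 15.1 and 13.2 FPKM at 5 weeks and at 15.1, 20.95 and 7.35 FPKM at 6.5 weeks. The groups were apart at 6 months (log2 -1.50 ± 0.22, adjusted p = 7.54e-06) and overlapped in juveniles (-0.50 ± 0.22, adjusted p = 0.0795). SCNN1A, the alpha subunit of the epithelial sodium channel, fell in juveniles by 0.92 ± 0.16 (adjusted p = 6.17e-05), from 5.41 to 7.35 FPKM to 2.41 to 5.39 FPKM. At 6 months its change was -0.42 ± 0.16 (adjusted p = 0.0349), and leaving out any 1 of 6 libraries ended that call (adjusted p up to 0.1125).

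Of the 11 voltage-gated calcium genes 7 fell at 6 months (63.6%) and 6 in juveniles (54.5%), and 0 rose at either age. Over all genes 30.1% and 20.8% fell, and 16.0% and 16.5% rose. CACNA1D, CACNA1G and CACNB4, among those that fell at both ages, are listed through their unoperated libraries only, as are CACNA1A and CACNB1. Of the alpha2delta subunits, which carry the channel to the membrane, CACNA2D2 lay at 25.4 to 38.8 FPKM (median 29.9) in unoperated and 11.1 to 18.4 FPKM (median 14.8) in operated 6-month libraries. In juveniles it lay at 28.9 to 44.2 FPKM without surgery, at 17.2, 14.9 and 11.3 FPKM at 5 weeks and at 8.92, 11 and 21.6 FPKM at 6.5 weeks. It fell without overlap by 0.98 ± 0.16 (adjusted p = 2.46e-05) and 1.40 ± 0.16 (adjusted p = 2.06e-07). CACNA2D3 fell, also without overlap, by 0.91 ± 0.12 (adjusted p = 2.33e-06) and 0.83 ± 0.12 (adjusted p = 9.43e-06), whereas CACNA2D1 did not pass the test at -0.51 ± 0.24 (adjusted p = 0.0892) and -0.38 ± 0.24 (adjusted p = 0.231). Of the pores, the L-type gene CACNA1D fell by 0.83 ± 0.15 (adjusted p = 9.19e-05) and 0.82 ± 0.15 (adjusted p = 0.00012). The L-type gene CACNA1C, which drives smooth muscle contraction, fell by 0.37 ± 0.11 (adjusted p = 0.00617) and 0.55 ± 0.11 (adjusted p = 0.000216). CACNA1G, of the low-voltage T type, fell at 6 months by 0.83 ± 0.15 (adjusted p = 0.00011), and its juvenile call (-0.41 ± 0.15, adjusted p = 0.0396) was lost when any 1 of 8 libraries was left out (adjusted p up to 0.126). Of the beta subunits CACNB4 fell by 0.80 ± 0.13 (adjusted p = 2.19e-05) and 0.60 ± 0.13 (adjusted p = 0.00069), CACNB2 at 6 months by 0.35 ± 0.093 (adjusted p = 0.00361), and the most abundant, CACNB3, did not pass the test (-0.08 ± 0.079, adjusted p = 0.425, and -0.01 ± 0.079, adjusted p = 0.955). The smooth muscle markers counted 8 falls and 0 rises of 11 at 6 months and 7 falls and 2 rises in juveniles.

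The TRP and mucolipin genes, among them sensors of heat, stretch and lipids, number 10 (TRPC4AP included). At 6 months 2 rose (20%) and 4 fell (40%), beside 16.0% and 30.1% of all genes. In juveniles 1 rose (10%) and 3 fell (30%), beside 16.5% and 20.8%. TRPV2, known from macrophages and stretched muscle, lay at 2.67 to 3.37 FPKM in unoperated and 4.64 to 7.14 FPKM in operated 6-month libraries. In unoperated 5-week libraries it lay at 3.41 to 4.75 FPKM. Operated 5-week libraries had 7.56, 7.69 and 10.2 FPKM, and operated 6.5-week libraries 9.43, 8.74 and 10.2 FPKM. TRPV2 rose without overlap, by 0.85 ± 0.097 (adjusted p = 1.56e-07) and 1.08 ± 0.097 (adjusted p = 4.2e-09). TRPV4, an osmosensor of ciliary epithelium and muscle, rose at 6 months by 0.88 ± 0.17 (adjusted p = 0.000131) and stood at 0.22 ± 0.17 (adjusted p = 0.311) in juveniles. TRPM1 fell at 6 months from 89.8 to 132 FPKM (median 112) to 48.1 to 92.9 FPKM (median 63), with slight overlap (log2 -0.73 ± 0.11, adjusted p = 1.35e-05). Its juvenile change of -0.33 ± 0.11 (adjusted p = 0.0227) lost its call without unoperated 5-week replicate 7 (adjusted p = 0.0524) or operated 6.5-week replicate 3 (adjusted p = 0.059). The pigment cell markers beside TRPM1 counted 9 falls of 9 at 6 months and 8 of 9 in juveniles. MCOLN3, an endolysosomal cation channel, fell by 0.67 ± 0.14 (adjusted p = 0.000561) and 0.62 ± 0.14 (adjusted p = 0.00138), while MCOLN1 and MCOLN2 did not pass the test. TRPM7, a magnesium-permeable channel with its own kinase, fell at 6 months by 0.57 ± 0.12 (adjusted p = 0.000434).

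Of the P2X receptors, cation channels opened by extracellular ATP, P2RX4 and P2RX1 rose at both ages. P2RX4, abundant in macrophages and endothelium, lay at 17.4 to 23 FPKM (median 20.1) in unoperated and 24.8 to 45.5 FPKM (median 32) in operated 6-month libraries. Its juvenile values were 15.7 to 19.3 FPKM without surgery, 21.2, 21.4 and 27.8 FPKM at 5 weeks and 28.3, 24.1 and 31.4 FPKM at 6.5 weeks. No values overlapped, and the rises were 0.68 ± 0.11 (adjusted p = 2.51e-05) and 0.54 ± 0.11 (adjusted p = 0.000409). P2RX1, of platelets and smooth muscle and listed through its operated libraries, rose by 0.72 ± 0.16 (adjusted p = 0.000896) and 1.06 ± 0.16 (adjusted p = 1.43e-05). P2RX7, the receptor best known for inflammasome activation, lies next to P2RX4 in the gene order and fell at 6 months by 0.39 ± 0.093 (adjusted p = 0.00132), with -0.20 ± 0.093 (adjusted p = 0.104) in juveniles. All 9 measured macrophage markers rose in both comparisons. The IP3 receptors, which release calcium from the endoplasmic reticulum, both fell at 6 months, ITPR1 by 0.32 ± 0.088 (adjusted p = 0.00425) and ITPR2 by 0.63 ± 0.13 (adjusted p = 0.000341). Neither passed the test in juveniles (adjusted p = 0.379 and 0.108).

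Some surgery calls were lost when libraries were left out. At 6 months KCNA6, a voltage-gated pore, fell by 0.40 ± 0.14 (adjusted p = 0.0238), a call lost without operated replicate 2, 4 or 6 (adjusted p = 0.0602, 0.074 and 0.0639). TRPC1, a subunit of calcium-permeable channels, fell by 0.39 ± 0.14 (adjusted p = 0.025), a call lost without operated replicate 4 or 5 (adjusted p = 0.0766 and 0.0548) or unoperated replicate 5 or 6 (adjusted p = 0.0533 and 0.0505). In juveniles TRPM7 fell by 0.36 ± 0.12 (adjusted p = 0.0202), but not without unoperated 5-week replicate 3, operated 5-week replicate 1 or operated 6.5-week replicate 3 (adjusted p = 0.0506, 0.052 and 0.0892). The anoctamin ANO3, listed through its unoperated 5-week libraries only, fell there by 0.57 ± 0.18 (adjusted p = 0.0139, and 0.0606 without operated 6.5-week replicate 3). The calls in juveniles of CLCN6, CLIC4, KCNK13 and KCNN3 were lost when any 1 of 5, 7, 8 and 7 libraries was left out, with adjusted p up to 0.0806, 0.112, 0.136 and 0.09505. Without the 8 libraries rich in lens RNA the juvenile calls of KCNJ2 (adjusted p = 0.138), KCNJ3 (adjusted p = 0.0969) and KCNK6 (adjusted p = 0.1) were lost, and that of KCNJ2 at 6 months (adjusted p = 0.0576). This also takes out 4 of the 7 unoperated 5-week libraries, so lens RNA and fewer libraries cannot be told apart. With all libraries kept and lens and photoreceptor markers as covariates, 52 members were called at 6 months and 47 in juveniles, against 54 and 48 without.

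Between unoperated 5-week and 6-month libraries 17 members rose with age and 7 fell, beside 11.4% and 9.46% of all genes, and the median log2 fold change was 0.14 over the members and 0.04 over all genes. The limit for listing bears on these counts too. For example, KCNA3 is listed through its unoperated 6-month libraries only, and CACNA1A through its unoperated 5-week libraries only. The rises included 5 voltage-gated, 3 background or rectifying, 3 calcium-activated and 2 accessory potassium channel genes, and under each of the 3 scalings tried 3 voltage-gated ones. At equal FPKM sums 14 members rose and 9 fell, beside 6.76% and 12.8% of all genes. Without the 8 libraries rich in lens RNA, of which 4 are unoperated 5-week, 10 members passed the test. With all libraries kept and lens and photoreceptor markers as covariates, 16 passed. These comparisons use the same unoperated libraries as the surgery comparisons, so the values stand side by side and are not independent of them.

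Genes of the calcium-activated family rose with age in 3 of 7 cases (42.9%, beside 11.4% of all genes). KCNN3, a small-conductance channel of endothelium and smooth muscle, lay at 1.5 to 2.99 FPKM (median 2.16) at 5 weeks and 3.55 to 5.25 FPKM (median 3.78) at 6 months, a rise of 0.80 ± 0.12 without overlap (adjusted p = 6.53e-05). KCNMB1, the beta subunit of the large-conductance channel in smooth muscle, lay at 2.35 to 4.96 FPKM (median 3.88) at 5 weeks and 6.22 to 7.14 FPKM (median 6.45) at 6 months (log2 0.78 ± 0.16, adjusted p = 0.00112). KCNMB4, the beta subunit best known from neurons, rose by 0.64 ± 0.14 (adjusted p = 0.00194). The pore gene KCNMA1 stood at 0.06 ± 0.24 (adjusted p = 0.883). In this comparison the smooth muscle markers counted 6 rises and 0 falls of 11, the glia and nerve markers 4 and 0 of 11, the macrophage markers 4 and 0 of 9, the endothelial markers 1 and 3 of 11 and the cell division genes 0 and 11 of 12.

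Of the leak channels, KCNK2 lay at 10.6 to 16.3 FPKM (median 13.4) at 5 weeks and 17.5 to 30.3 FPKM (median 22.2) at 6 months and rose without overlap by 0.77 ± 0.13 (adjusted p = 0.000212). KCNK5, an acid-sensitive relative listed through its operated libraries, rose by 0.58 ± 0.13 (adjusted p = 0.00261). Of the accessory subunits KCNAB1 rose from 9.39 to 14.9 FPKM to 15.6 to 22.4 FPKM (log2 0.72 ± 0.11, adjusted p = 8.35e-05), and KCNIP2 from 4.26 to 8.68 FPKM to 9.5 to 13.9 FPKM (log2 0.65 ± 0.18, adjusted p = 0.0135). The KCNIP2 call was lost without the libraries rich in lens RNA (adjusted p = 0.193). KCNC4, a fast-gating pore, rose by 0.82 ± 0.22 (adjusted p = 0.0103) and KCNQ5 by 0.52 ± 0.12 (adjusted p = 0.00412), and both calls were lost without those libraries (adjusted p = 0.213 and 0.136). CLIC4 rose by 0.38 ± 0.065 (adjusted p = 0.000193) and CLIC1 by 0.33 ± 0.066 (adjusted p = 0.00108, and 0.058 without those libraries).

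The largest change with age was a fall. KCNA5 lay at 5.18 to 12 FPKM (median 6.87) in unoperated 5-week and 2.52 to 3.85 FPKM (median 2.88) in unoperated 6-month libraries, a 2.31-fold difference without overlap (log2 -1.21 ± 0.13, adjusted p = 7.35e-07). In operated libraries it lay at 10.7, 9.7 and 8.63 FPKM at 5 weeks of age, at 6.87, 7.16 and 7.53 FPKM at 6.5 weeks and at 4.03 to 5.72 FPKM at 6 months. It was thus lower at 6 months there too (log2 -0.68 ± 0.14, adjusted p = 0.00213). CACNA1C fell with age from 7.82 to 9.92 FPKM (median 8.84) to 4.66 to 6.64 FPKM (median 5.37) without overlap (log2 -0.63 ± 0.10, adjusted p = 0.000118). TRPV2 fell by 0.33 ± 0.093 (adjusted p = 0.0135) and GJC1 by 0.41 ± 0.12 (adjusted p = 0.0151). Without the libraries rich in lens RNA both calls were lost (adjusted p = 0.194 and 0.0854), and likewise without the late-numbered 5-week samples (adjusted p = 0.0519 and 0.0743). The calls of CACNA1A, CLCN5, KCNA3, KCNA6, KCNG1, KCNJ2 and TRPM1 with age were each lost when single libraries were left out, those of KCNA3 and KCNA6 in 10 and 12 cases, with adjusted p up to 0.0997 and 0.0895.

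**Figure D4:**
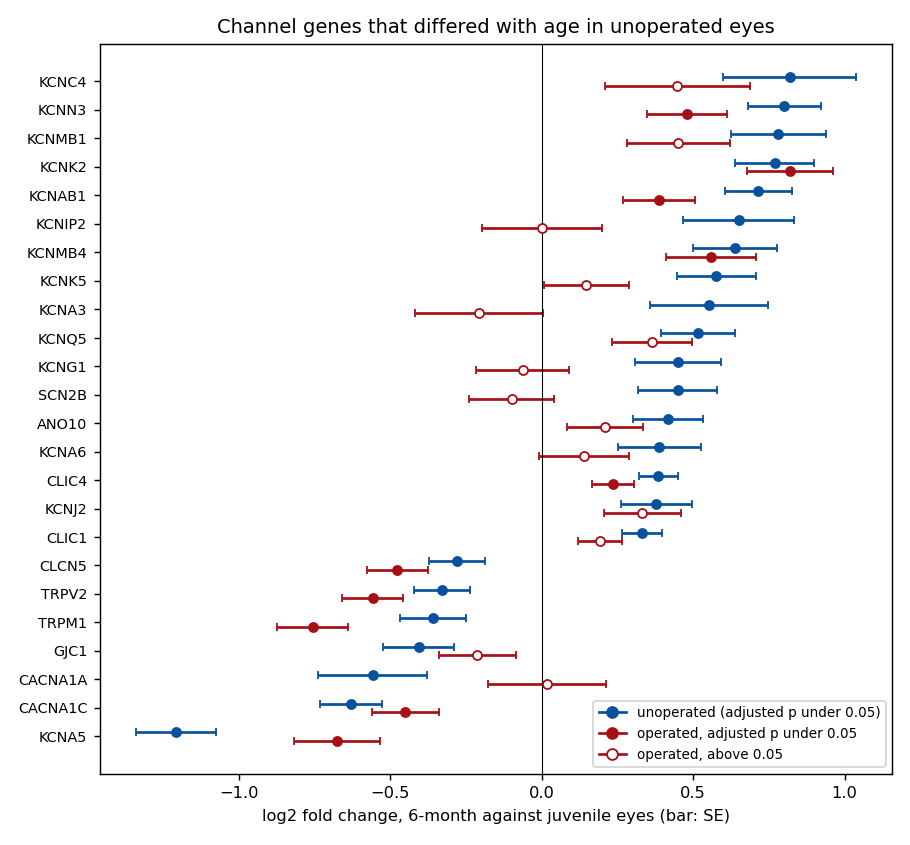
Log2 fold change with age, 6 months against 5 weeks, on the log2(FPKM + 0.5) scale with its SE, for the 24 members that passed the test in unoperated libraries (blue) and for the same members in operated libraries (red, filled where they passed). KCNA5 is lowest among the unoperated values at -1.21, and 17 of the 24 lie above 0.

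Among operated libraries, 6 months against the juveniles, 7 members rose and 7 fell, beside 5.88% and 9.78% of all genes. This split moved with the scaling: 35.7% of the calls were rises at equal FPKM sums and 66.7% with median-ratio scaling, against 50% without scaling. The split over all genes moved the same way. At equal FPKM sums 2.54% of them rose and 15.4% fell, and with median-ratio scaling 8.89% rose and 8.27% fell. KCNK2 rose by 0.82 ± 0.14 (adjusted p = 0.000346), from 7.22 to 10.8 FPKM in operated juveniles to 12.3 to 21 FPKM. KCNMB4 rose by 0.56 ± 0.15 (adjusted p = 0.0124), SCNN1A by 0.78 ± 0.17 (adjusted p = 0.0024), and KCNN3 by 0.48 ± 0.13 and KCNK1 by 0.57 ± 0.13 (adjusted p = 0.0145 and 0.00316, and 0.0772 and 0.0503 without the libraries rich in lens RNA). Besides KCNA5, those that fell were TRPM1 by 0.76 ± 0.12 (adjusted p = 0.000105), TRPV2 by 0.56 ± 0.10 (adjusted p = 0.000495), ITPR1 by 0.52 ± 0.091 (adjusted p = 0.000429), CLCN5 by 0.48 ± 0.10 (adjusted p = 0.00199) and CACNA1C by 0.45 ± 0.11 (adjusted p = 0.00651). The calls of CLIC4 and KCNAB1 were lost when single libraries were left out, with adjusted p up to 0.0673 and 0.0713.

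Whether surgery acted differently at the 2 ages was tested as the difference of the surgery effects. By limma 0 of 89 members passed, in either direction, against 0.734% of all genes with a more positive and 0.355% with a more negative effect at 6 months. At an unadjusted p under 0.05 the counts were 18 of 89 members and 1669 of 12948 genes. The smallest adjusted p belonged to ITPR1 (difference -0.43, adjusted p = 0.109) and GJB6 (difference -1.77 ± 0.52, adjusted p = 0.118). GJB6 lay at 1.41 to 2.56 FPKM in unoperated 5-week libraries, at 0.91, 4.01 and 5.48 FPKM and at 2.11, 7.47 and 1.39 FPKM in the operated 5-week and 6.5-week libraries, at 1.81 to 8.05 FPKM in unoperated and 0.64 to 3.32 FPKM in operated 6-month libraries. The operated juvenile values thus ranged from below to well above the unoperated ones. SCN7A followed (adjusted p = 0.136). Leaving out 1 library let single members pass: GJB6 without operated 5-week replicate 1 (-2.08, adjusted p = 0.0342), SCN7A without operated 6.5-week replicate 3 (-1.21, adjusted p = 0.0291), ITPR1 without that library or without unoperated 6-month replicate 2 (adjusted p = 0.0394 and 0.0325), and KCNK3 (adjusted p = 0.0366) and TRPV4 (0.81, adjusted p = 0.0456) without operated 6-month replicate 5. So a call present at 1 age and missing at the other, as for KCNA3, KCNA5, SCN2B or PANX1, is not shown to be a difference between the ages.

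Operated 6.5-week and 5-week libraries, 3 against 3, gave 0 called members by limma, where 0.00772% of all genes rose and 0.00772% fell. At an unadjusted p under 0.05 the counts were 13 of 89 members and 1339 of all genes. KCNMB1 had the values 3.3, 2.41 and 1.81 FPKM at 5 weeks and 5.67, 4.42 and 6.94 FPKM at 6.5 weeks, which do not overlap (log2 1.05 ± 0.24, adjusted p = 0.135). Without operated 6.5-week replicate 2 it passed the test (adjusted p = 0.0378).

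For 20 members the table holds more than 1 transcript, and KCNIP2 and KCNAB1 are described here because their abundant transcripts differed in their changes; others with transcripts of differing direction are given among the processing alternatives. Reads shared by transcripts of a gene can only be divided between them by estimation, so these values are less certain than gene sums, and a 0 may be a failed estimate. TRPC1, which did not pass the test with age in operated libraries as a gene sum, had NM_001082651.1 at a log2 of 1.09 ± 0.33 (adjusted p = 0.0354) and XM_017346639.1 at -1.15 ± 0.27 (adjusted p = 0.00671) there. KCNIP2 has 3 transcripts. XM_002718671.3 lay at 2.55 to 7.78 FPKM (median 4.03) in unoperated 6-month libraries and at 0 in 4 of 6 operated ones, with a highest value of 2.51 FPKM (log2 -2.33, adjusted p = 0.000308). XM_002718672.3 lay at 2.04 to 6.81 FPKM (median 4.79) without and 0 to 2.82 FPKM (median 0.495) with surgery at 6 months (log2 -2.15, adjusted p = 7.47e-05). XM_002718676.3 lay at 0.36 to 4.39 FPKM (median 1.82) and 0.93 to 3.32 FPKM (median 2.32) in the same groups (log2 0.29, adjusted p = 0.581). The fall of the gene sum thus came from the first and second transcripts. Of the KCNAB1 transcripts, NM_001170956.1 went from 0.98 to 2.86 FPKM (median 1.56) in unoperated 5-week to 5.56 to 8.92 FPKM (median 6.57) in unoperated 6-month libraries (log2 1.68, adjusted p = 0.000474). XM_008266198.2 lay at 8.2 to 12.1 FPKM (median 8.65) and 9.72 to 15.1 FPKM (median 11.7), and its change with age was 0.33 (adjusted p = 0.0914).

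**Figure D5:**
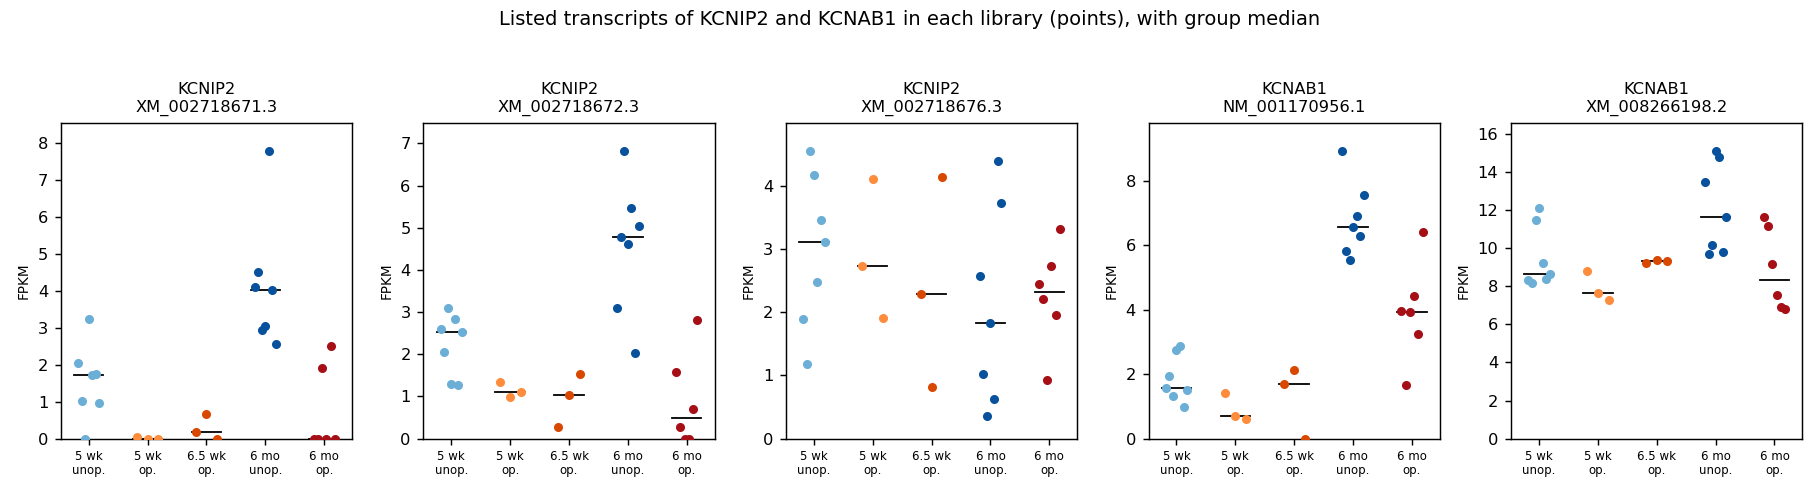
FPKM of the 3 KCNIP2 and 2 KCNAB1 transcripts in each of the 26 libraries, by group, with the group median as a line. The first and second KCNIP2 transcripts drop in operated 6-month libraries while the third spans a like range in both groups, and NM_001170956.1 of KCNAB1 is at 5.56 FPKM or more in every unoperated 6-month library.

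Genes that work beside the channels were read from 4 lists. Over all genes 16.0% rose and 30.1% fell at 6 months, and 16.5% rose and 20.8% fell in juveniles. Of 24 measured pumps and cotransporters of aqueous humour secretion, 7 rose (29.2%) and 8 fell (33.3%) at 6 months. In juveniles 5 rose (20.8%) and 8 fell (33.3%). The anion exchanger SLC26A4 fell by 4.83 ± 0.25 (adjusted p = 5.47e-13) and 5.23 ± 0.25 (adjusted p = 1.07e-13), and the pump regulator FXYD5 rose by 2.59 ± 0.15 (adjusted p = 1.73e-12) and 2.31 ± 0.15 (adjusted p = 1.49e-11). Of 27 other channel genes 7 rose (25.9%) and 10 fell (37%) at 6 months, and 7 rose (25.9%) and 8 fell (29.6%) in juveniles. Among them BEST2, a calcium-activated anion channel of the ciliary epithelium, fell by 2.90 ± 0.20 (adjusted p = 3.39e-11) and 2.97 ± 0.20 (adjusted p = 2.51e-11). The water channel AQP3 rose by 2.62 ± 0.32 (adjusted p = 6.02e-07) and 2.19 ± 0.32 (adjusted p = 9.41e-06), and LRRC8A, the core of volume-regulated anion channels, by 0.58 ± 0.085 (adjusted p = 5.98e-06) and 0.50 ± 0.085 (adjusted p = 5.57e-05).

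Of 27 genes of calcium stores, pumps and entry, 3 rose (11.1%) and 9 fell (33.3%) at 6 months, beside 16.0% and 30.1% of all genes. In juveniles 3 rose (11.1%) and 7 fell (25.9%), beside 16.5% and 20.8% of all genes. These shares of falls lay near those of all genes. The store pump ATP2A2 fell by 1.32 ± 0.10 (adjusted p = 2.52e-10) and 0.90 ± 0.10 (adjusted p = 1.95e-07). The release channel RYR2 fell at 6 months by 1.22 ± 0.18 (adjusted p = 6.47e-06) and stood at -0.32 ± 0.18 (adjusted p = 0.173) in juveniles. Of 22 channel regulators and anchors 5 rose (22.7%) and 11 fell (50%) at 6 months, and 2 rose (9.09%) and 8 fell (36.4%) in juveniles. FGF14, a partner of sodium channels, stood at -1.32 ± 0.15 (adjusted p = 2.43e-07) and -0.73 ± 0.15 (adjusted p = 0.000575). WNK2, a kinase that controls ion cotransport, fell by 0.95 ± 0.13 (adjusted p = 1.64e-06) and 0.75 ± 0.13 (adjusted p = 4.58e-05).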

How the data were processed

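Deposited FPKM of 26 iris and ciliary body libraries were used, without the 23 cornea samples. RSEM 1.2.12, Bowtie2 2.2.5, HISAT and HISAT2 2.0.4 appear in the submitters' processing notes. Genome build and annotation: not given in the sources used here. Deposited FPKM of 16725 transcripts (unit per the file headers) were summed per gene symbol. Groups came from the age and treatment labels. With limma 3.58.1 (R 4.3.3), 1 mean per group was fitted on log2(FPKM + 0.5), with trend and robust moderation, for 6 comparisons. Benjamini-Hochberg adjustment covered all 12948 genes. A filter of 1 FPKM in at least 3 libraries removed 0 genes. The log2 scale understates the change of low genes. The fit was checked on simulated data. Members and lists were chosen with earlier results of these data known. For each comparison the rule named up to 30 called members by size of change, the 3 most abundant members of each family and up to 4 genes of each companion list. Some further members, such as GJB6, KCNMB1 and SCN2B, were named after their values were seen. RefSeq genes (assembly mOryCun1.1) gave names and gene order only, with 81 of 118 member transcripts matched. Alternatives tried were other pseudocounts, filters, scalings, sets of libraries, lens and photoreceptor covariates, single transcripts and leaving out each library. Some genes are not reported here.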

Additional observations from a re-analysis of the deposited data

Results flagged for a closer look

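For 41 members the libraries of 123 groups were searched for a lone high or low value by Dixon's criterion, which chance meets in about 1 in 20 groups, and 8 groups met it. In unoperated 6-month libraries CACNA2D2 stood at 38.75 FPKM in replicate 4 (others 25.39 to 30.14) and KCNIP2 at 13.87 FPKM in replicate 5 (others 9.5 to 11.31). In unoperated 5-week libraries CACNA2D3 stood at 20.71 FPKM in replicate 5 (others 16.33 to 18.1), KCNF1 at 3.27 FPKM in replicate 3 (others 3.76 to 3.95) and TRPV4 at 2.06 FPKM in replicate 2 (others 1.58 to 1.78). In operated 6-month libraries GJB6 stood at 3.32 FPKM in replicate 1 (others 0.64 to 1.55), KCNJ13 at 271.41 FPKM in replicate 6 (others 105.24 to 163.88) and KCNK3 at 9.93 FPKM in replicate 5 (others 2.84 to 4.43).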

How the results depend on the processing

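Of the calls, 45 of 54 for surgery at 6 months, 30 of 48 for surgery in juveniles, 8 of 24 for age in unoperated and 3 of 14 for age in operated libraries passed under every alternative that tested them. A filter on low levels left some genes untested, and 27, 20, 5 and 2 calls were tested and passed under all of them. Of single transcripts, only the most abundant of each gene entered these counts. Leaving out each library in turn gave 50 to 57, 42 to 51, 20 to 24 and 13 to 19 called members, 0 to 2 for the difference of the surgery effects and 0 to 1 for operated 6.5 against 5 weeks. A mean of at least 5 FPKM, which left 9734 genes, gave 34, 30 and 13 called members for surgery at 6 months, surgery in juveniles and age in unoperated libraries. Without libraries over 1000 FPKM of CRYAA, which left 18, age in unoperated libraries gave 10. Age in operated libraries gave 6 when only the compared groups were fitted and 7 with the 6.5-week libraries alone as juveniles. Single transcripts turned the direction of some gene sums. At 6 months these were CLCN3 NM_001082029.1 (0.11), ITPR1 XM_008273602.2 (0.18), TRPM1 XM_017348353.1 (0.033) and KCNIP2 XM_002718676.3, also its most abundant transcript (0.29, and -0.60 with age in unoperated libraries). In juveniles they were CLCN3 NM_001082029.1 (0.13) and KCNK2 XM_002717510.3 (0.077), and with age in operated libraries CLCN5 XM_008272337.2 (0.016) and TRPM1 XM_017348353.1 (0.44). The cause was not tested. No paired analysis was possible because the labels give no replicate numbers shared between groups. Read depth is unknown, so no counting error can be given for members under 2 FPKM.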
